A study of Mus musculus with 162 samples.

Results

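Matrix metalloproteinases (MMPs), the related ADAMTS proteases and their tissue inhibitors (TIMPs) were followed through the MC903 mouse model of atopic dermatitis. The members were all protein-coding genes whose mouse symbol is Mmp, Adamts or Timp with a number and an optional letter. There were 45 of them among the 46078 genes counted in each library: 22 Mmp, 19 Adamts and 4 Timp genes. Gene expression was measured by RNA-seq of cheek skin, trigeminal ganglia (the ganglia that hold the sensory neurons of the face) and spinal cord, and 144 libraries were used here, 61 of skin, 56 of ganglia and 27 of cord. The mice were male C57BL/6, aged 8 to 12 weeks by the methods. MC903 (calcipotriol, a vitamin D analog) at 0.2 mM, or ethanol as its vehicle, was put on the cheek in 20 µL once per day. For the cord libraries the labels give the same volume, whereas the methods give a larger one on the rostral back.

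In skin, uninjected wild-type mice gave 4 MC903 and 4 ethanol libraries at day 1 (6 hours after the first treatment), 3 and 2 at day 2, 3 and 3 at day 5 and 5 and 6 at day 8. The other day 8 groups were wild-type mice injected with PBS (2 and 3), wild-type mice injected daily with 250 µg of anti-Gr1 (aGr1), an antibody that depletes neutrophils (4 and 4), TSLPR KO mice, which lack the TSLP receptor subunit Crlf2 (3 and 2), and BLT1 KO mice, which lack the leukotriene B4 receptor Ltb4r1 (3 and 3). TSLPR KO mice were also sampled at day 12 (4 and 3). Ganglia came from the same arms except BLT1 KO, and cord at day 8 from uninjected, PBS-injected and aGr1-injected wild-type mice. The TSLPR KO is a constitutive allele on the C57BL/6 background, the methods do not describe the BLT1 KO line, and anti-Gr1 was given to the whole animal. The labels do not say whether libraries of a group came from separate mice, so the p-values measure the spread between libraries. Each library is of bulk tissue, in which fewer cells of a type and less RNA per cell cannot be told apart.

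As background, MMPs are zinc proteases that are made as inactive proenzymes and together cut most proteins of the extracellular matrix, among them fibrillar collagens (collagenases), denatured and basement membrane collagens (gelatinases), proteoglycans and laminins (stromelysins) and elastin (the macrophage elastase MMP12). ADAMTS proteases are secreted relatives that cut the proteoglycans aggrecan and versican, trim the ends of procollagens, or act on cartilage and clotting proteins. TIMPs bind the active site of MMPs, and TIMP3, which stays in the matrix, also inhibits some ADAMTS and ADAM enzymes. In skin these enzymes are known for wound repair, hair follicle cycling and the entry of leukocytes.

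A group of 9 Mmp genes lies in 1 cluster on mouse chromosome 9, between 7272514 and 7699585 (GRCm38, 427.1 kb), in the order Mmp13, Mmp12, Mmp1b, Mmp3, Mmp10, Mmp8, Mmp27, Mmp20 and Mmp7, and 6 of these 9 genes were higher with MC903 in skin at day 8. Their promoters are shown because several genes with large rises lie together here and AP-1 (Fos and Jun dimers) is a textbook regulator of this cluster. RefSeq promoters (GRCm38.p6) of 300 bases, 250 before to 50 after the start of transcription, matched 31 of the 45 members by symbol. Both strands were searched for the AP-1 element TGANTCA. It was found in 7 of the 9 cluster genes and in 0 of the 22 other members with a promoter, and 8.97% of 27025 genes (7.81% of 32851 promoters) hold it. Members without a matched promoter were not searched: Mmp2, Mmp9, Mmp16, Mmp17, Mmp19, Adamts4, Adamts5, Adamts6, Adamts7, Adamts8, Adamts10, Adamts15, Adamts16 and Adamts19. Several of these were called higher in skin, so 0 of 22 does not cover them. The sequences below run 5′ to 3′ along each gene from 120 bases before the start of transcription to 10 bases after it, with the element in capitals. Mmp13 lies at chr9:7272394-7272523 on the plus strand, Mmp12 (the second of its starts) at chr9:7347254-7347383 on the plus strand, Mmp1b at chr9:7388017-7388146 on the minus strand, Mmp3 at chr9:7445702-7445831 on the plus strand, Mmp10 at chr9:7502222-7502351 on the plus strand and Mmp8 at chr9:7558309-7558438 on the plus strand.
Mmp13: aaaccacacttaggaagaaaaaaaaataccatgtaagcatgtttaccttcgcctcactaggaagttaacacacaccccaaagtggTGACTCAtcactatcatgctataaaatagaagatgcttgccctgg
Mmp12: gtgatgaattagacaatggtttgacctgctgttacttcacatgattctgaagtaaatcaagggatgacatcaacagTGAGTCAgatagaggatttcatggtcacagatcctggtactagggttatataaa
Mmp1b: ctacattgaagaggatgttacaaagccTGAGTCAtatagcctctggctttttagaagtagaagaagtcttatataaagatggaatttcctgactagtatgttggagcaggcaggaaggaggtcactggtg
Mmp3: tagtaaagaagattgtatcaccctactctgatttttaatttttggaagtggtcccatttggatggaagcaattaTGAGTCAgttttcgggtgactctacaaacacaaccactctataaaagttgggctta
Mmp10: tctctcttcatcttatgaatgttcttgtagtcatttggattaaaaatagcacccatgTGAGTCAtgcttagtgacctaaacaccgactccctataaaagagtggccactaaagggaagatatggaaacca
Mmp8: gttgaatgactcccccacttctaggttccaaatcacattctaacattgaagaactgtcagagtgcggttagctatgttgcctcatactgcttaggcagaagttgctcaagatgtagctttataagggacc

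The element begins 35 bases before the start in Mmp13, 44 in Mmp12, 46 in Mmp3, 63 in Mmp10 and 93 in Mmp1b. Mmp8 and Mmp27 have no match in their windows, nor has the first start of Mmp12. Mmp20 (TGAATCA) and Mmp7 also hold a match. Mmp20 did not pass in any of the 7 skin comparisons that tested it, and Mmp7 had too few counts to be tested in any. A match is a description of these letters and not of a factor's binding. The annotated Mmp12 and Mmp1b genes overlap on opposite strands and the strand setting of the counting is not stated, so their reads cannot be fully told apart, and Mmp1b has a close copy, Mmp1a, between Mmp3 and Mmp10, which the GENCODE annotation used to choose the members lists as a polymorphic pseudogene. Mmp1b values are therefore uncertain.

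Levels between genes were compared as RPKM, counts scaled to library size and to exon length (mean ± SD). In ethanol-treated skin at day 8 (n = 6) the highest members were the inhibitor Timp2 at 88.6 ± 25.4 RPKM and the gelatinase Mmp2 at 84.01 ± 25.9, whose ranges overlapped, then Mmp14, the membrane-bound activator of pro-MMP2, at 32.2 ± 7.92 and Timp3 at 23.2 ± 3.10. The collagenases were near the bottom, Mmp13 at 0.2997 ± 0.137 and Mmp8 at 0.0445 ± 0.0178 RPKM. After 8 days of MC903 (n = 5) Mmp2 was at 118.4 ± 23.5, the stromelysin Mmp3 at 91.2 ± 39.7, Timp1 at 46.5 ± 28.4 and Mmp13 at 31.9 ± 21.1 RPKM. Ethanol ganglia (n = 5) were led by Timp2 at 209 ± 39.3, Timp3 at 31.7 ± 6.72 and Mmp15 at 31.5 ± 3.97 RPKM, and ethanol cord (n = 5) by Timp2 at 97.5 ± 9.93, Adamts4 at 18.4 ± 0.610 and Timp3 at 14.4 ± 1.53 RPKM. With ethanol, Timp2 had the highest mean of the members in each of the 3 tissues.

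In any library, a gene with at most 3 counts was held to be not detectable. Of the 45 members, 36 were above this floor in each of the skin libraries, 32 in each ganglion library and 35 in each cord library. Mmp7 (matrilysin) never had more than 4 counts in skin. Mmp1b and Mmp20 (enamelysin) were above the floor in no ganglion library, and Mmp1b, Mmp7, Mmp10, Mmp20 and Mmp27 in no cord library.

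**Figure D1:**
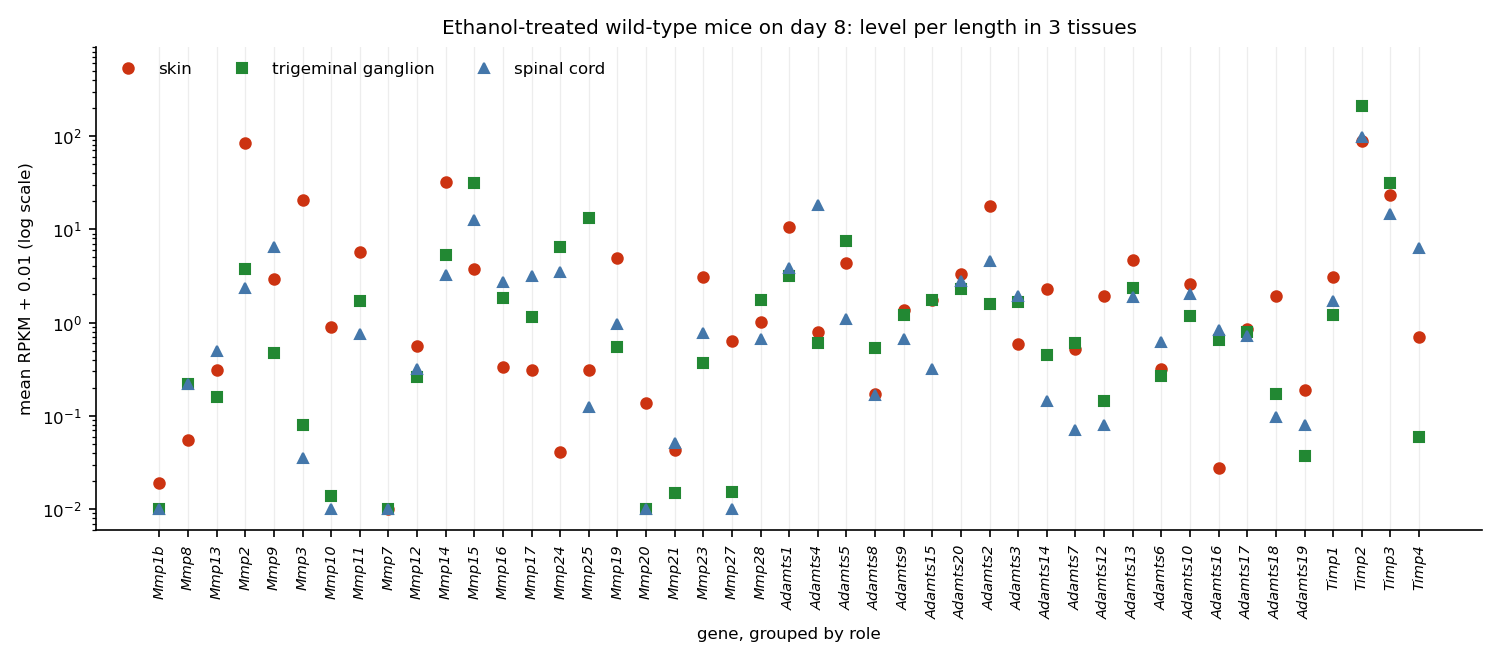
Mean level of each of the 45 members in ethanol-treated wild-type tissue at day 8, in RPKM on a log axis, with 1 point each for skin (6 libraries), trigeminal ganglion (5) and spinal cord (5). Timp2 is the highest in each tissue, and Mmp13, Mmp8 and Mmp1b lie among the lowest in skin.

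Libraries held 15931871 to 67342879 counts on genes. Cyp24a1, a vitamin D receptor target that checks the treatment labels, was at 1499 to 6739 CPM (counts scaled to library size) in MC903 skin and 0.33 to 30.9 in ethanol skin. Crlf2 was at 0.06 to 0.26 CPM in TSLPR KO skin of day 8 and 0.56 to 1.52 at day 12, against 2.24 to 10.5 in wild-type ethanol skin, and in ganglia of day 12 its 0.90 to 2.03 CPM overlapped the wild-type values of days 1 to 5. In uninjected ethanol ganglia of day 8, labelled wild-type, Crlf2 was at 0.12 to 3.73 CPM. The lowest of these libraries lay within the 0 to 0.24 CPM of TSLPR KO ganglia of day 8. It was kept in the day 8 ganglion comparison and in the ganglion interactions. Ltb4r1 was at 9.66 to 15.4 CPM with MC903 and 2.32 to 3.64 with ethanol in the libraries labelled BLT1 KO, against 31.4 to 79.9 and 6.66 to 9.83 in uninjected wild-type skin of day 8. It was thus not absent, and its range overlapped that of arms with an intact gene: 3.51 to 6.04 CPM in aGr1 ethanol skin, and 11.3 to 19.7 with MC903 and 2.27 to 7.86 with ethanol in TSLPR KO skin of day 12. Sensory neuron markers summed to 1446 to 5409 CPM in ganglia and, apart from MC903 library 3 of day 2 at 1099.7, to 3 to 43 in skin. Salivary and lacrimal gland markers, which cheek skin should lack, summed to over 100000 CPM in 2 ethanol libraries of the aGr1 arm and 2 of day 12 (TSLPR KO). The uninjected day 8 libraries of skin and ganglia are labelled in 2 styles, here called cohorts A and B, with a term for cohort in the fit. MC903 was compared with ethanol by edgeR's quasi-likelihood F test over all genes whose counts summed to 10 or more, with Benjamini-Hochberg adjustment, and called higher or lower at an adjusted p under 0.05 in skin and cord and under 0.1 in ganglia. In what follows, levels are CPM after TMM normalization, listed library by library, and fold changes (log2FC) are log2 of MC903 over ethanol ± SE.

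At 6 hours the members fell more than they rose. Of 43 tested, 4 were higher with MC903 (background 5.51% of all genes tested) and 11 were lower (background 7.47%), with a median log2 fold change of -0.35 over the members tested and 0.00 over all genes tested. The inhibitors Timp2 and Timp3, the gelatinase Mmp2, its activator Mmp14 and the stromelysin Mmp3 were among those that fell. Timp2 was at 281, 291, 248 and 267 CPM with MC903 and 407, 439, 479 and 450.0 CPM with ethanol (log2FC -0.70 ± 0.10, adjusted p = 0.00358). Timp3, the matrix-bound inhibitor, was at 119.8, 118.8, 103 and 129.9 CPM with MC903 and 224, 195, 194 and 164 CPM with ethanol (log2FC -0.71 ± 0.11, adjusted p = 0.00392). In both genes every MC903 library lay below every ethanol library.

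Mmp3 was at 17.7, 25.6, 14.7 and 16.9 CPM with MC903 and 44.2, 35.9, 46.997 and 31.2 CPM with ethanol (log2FC -1.07 ± 0.18, adjusted p = 0.00581), again without overlap. Mmp2 was at 174, 177, 143 and 160.4 CPM with MC903 and 244, 268, 305 and 224 CPM with ethanol (log2FC -0.66 ± 0.12, adjusted p = 0.00806), and Mmp14 at 145, 152, 139.9 and 142 CPM with MC903 and 227, 209, 237 and 180.1 CPM with ethanol (log2FC -0.55 ± 0.10, adjusted p = 0.00783). The other genes that fell were Mmp28 (epilysin, an epidermal MMP) by 0.99 on the log2 scale (adjusted p = 0.0121), the membrane-type Mmp15 by 0.85 (0.00893) and Mmp25 by 1.03 (0.0191), Mmp11 by 0.95 (0.044), the procollagen N-proteinase Adamts2 by 0.58 (0.0149) and the versicanase Adamts9 by 0.54 (0.038). Fibroblast markers moved with them: 6 of 8 were lower, with sums of 8367 to 11936 CPM with MC903 and 13141 to 23780.0 with ethanol, as did 8 of 10 macrophage and monocyte markers (383 to 479 and 537 to 778 CPM). Gland markers were at 33.2, 35.4, 911 and 295 CPM with MC903 and 59.05, 40.3, 4098 and 80586 CPM with ethanol, and without the last of these ethanol libraries there were 16 called members. The part of these markers in the result was not tested.

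The genes that rose at 6 hours were all ADAMTS genes. Adamts20, the versicanase needed for melanoblast survival and coat colour, was at 39.98, 32.8, 30.5 and 37.2 CPM with MC903 and 19.2, 18.4, 18.5 and 12.2 CPM with ethanol (log2FC 1.05 ± 0.15, adjusted p = 0.00294). Adamts19 was at 5.73, 4.25, 3.49 and 4.64 CPM with MC903 and 1.48, 1.96, 1.84 and 1.397 CPM with ethanol (log2FC 1.44 ± 0.20, adjusted p = 0.00293). Neither gene's groups overlapped, and Adamts3, a procollagen N-proteinase that also processes VEGF-C, was higher by 0.94 (adjusted p = 0.0322) and Adamts6 by 0.80 (0.027). Hair follicle markers were at 10846 to 16890.0 CPM with MC903 and 6214 to 13629 with ethanol, and 0 of 8 passed the test as higher. Their part in the result was not tested. Mmp13, Timp1, Timp4 and Mmp12 did not pass the test at 6 hours, with adjusted p of 0.207, 0.348, 0.937 and 0.424. Leaving out single libraries, the calls for Adamts9 and Mmp11 held in 2 of 8 fits each, Adamts6 in 3 of 8, Adamts3 in 5 of 8 and Mmp25 in 6 of 8, and those of the other 10 genes in each fit.

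At day 2 no member passed the test among 44 (background 0% in either direction) by edgeR, 3 had an unadjusted p under 0.05, and DESeq2 called 2. The collagenase Mmp13 nevertheless stood apart, at 16.3, 24.2 and 30.2 CPM with MC903 and 0.559 and 0.427 CPM with ethanol (log2FC 5.56 ± 0.52, adjusted p = 0.0859). All 3 MC903 libraries lay above both ethanol libraries, and 1 fit over days 1 to 8, which estimates the spread from the libraries of all 4 days, gave 5.54 with an adjusted p of 1.8e-05. Without MC903 library 3, which carries the sensory neuron RNA, that fit gave an adjusted p of 8.8e-06. Timp1 was at 10.9, 8.33 and 12.5 CPM with MC903 and 4.24 and 3.67 CPM with ethanol (log2FC 1.41 ± 0.39, adjusted p = 0.799). The other inhibitors differed by -0.40 (Timp2, adjusted p = 0.921), -0.65 (Timp3, 0.898) and 0.52 (Timp4, 0.936).

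By day 5 the collagenases, stromelysins and Timp1 had risen in wild-type skin. Of 44 members tested, 13 were higher (background 8.15%) and 5 lower (background 6.78%), with a median log2 fold change of 0.04 over the members tested and -0.03 over all genes tested. Mmp13 was at 90.2, 76.7 and 92.2 CPM with MC903 and 0.714, 0.461 and 0.450 CPM with ethanol (log2FC 7.29 ± 0.25, adjusted p = 1.2e-05). Mmp8, the collagenase known from neutrophil granules, was at 13.8, 9.08 and 7.61 CPM with MC903 and 0.195, 0.0384 and 0.0999 CPM with ethanol (log2FC 6.41 ± 0.49, adjusted p = 2.7e-04). Mmp1b had no count in any ethanol library and was at least 5.79-fold higher than the floor of 3 counts per library (adjusted p = 0.0106). The MC903 and ethanol libraries of these 3 collagenases were far apart.

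Timp1, the inducible soluble inhibitor, was at 81.9, 35.8 and 27.9 CPM with MC903 and 4.87, 3.76 and 2.65 CPM with ethanol (log2FC 3.68 ± 0.45, adjusted p = 0.00219). Mmp3 was at 553, 281 and 269.8 CPM with MC903 and 64.5, 59.01 and 29.7 CPM with ethanol (log2FC 2.85 ± 0.39, adjusted p = 0.00368), and Mmp10 at 17.8, 15.2 and 14.7 CPM with MC903 and 2.01, 2.76 and 1.10 CPM with ethanol (log2FC 3.01 ± 0.33, adjusted p = 0.00144). These groups did not overlap, and Mmp11 (stromelysin 3) was higher by 1.53 (adjusted p = 0.00337), Mmp19 by 1.45 (adjusted p = 0.00485), Mmp9 (gelatinase B) by 2.64 (adjusted p = 0.0254) and the aggrecanase Adamts4 by 2.61 (adjusted p = 0.00985). Adamts7, which cuts cartilage oligomeric matrix protein (COMP), was higher by 1.46 (adjusted p = 0.0186), Adamts15 by 0.89 (adjusted p = 0.0333) and Adamts13, which cuts von Willebrand factor, by 0.71 (adjusted p = 0.0467).

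Timp2 and Timp3 went the other way. Timp3 was at 67.5, 91.6 and 112.3 CPM with MC903 and 182, 186 and 181 CPM with ethanol (log2FC -1.01 ± 0.21, adjusted p = 0.0175) and Timp2 at 333, 264 and 221 CPM with MC903 and 661, 593 and 421 CPM with ethanol (log2FC -1.03 ± 0.24, adjusted p = 0.0273), in both cases without overlap, whereas Timp4 did not pass (-1.25, adjusted p = 0.112). Adamts14, an N-proteinase, was lower by 1.45 (0.0184), Mmp23 by 1.002 (0.0483) and Adamts12, the other COMP-cutting ADAMTS, by 0.62 (0.0339). Gland markers were at 19215, 29065 and 62347 CPM in the ethanol libraries and 250.5 to 3758 with MC903, and this difference cannot be told apart from the treatment. The total of calls ranged from 9 without ethanol replicate 1 to 22 without ethanol replicate 3. Timp2, Timp3 and Mmp9 were called in 2 of 6, 3 of 6 and 2 of 6 of the fits that left out 1 library, Adamts7 in 4 of 6, Adamts15 in 2 of 6, and Adamts12, Adamts13, Adamts14 and Mmp23 in 1 of 6.

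**Figure D2:**
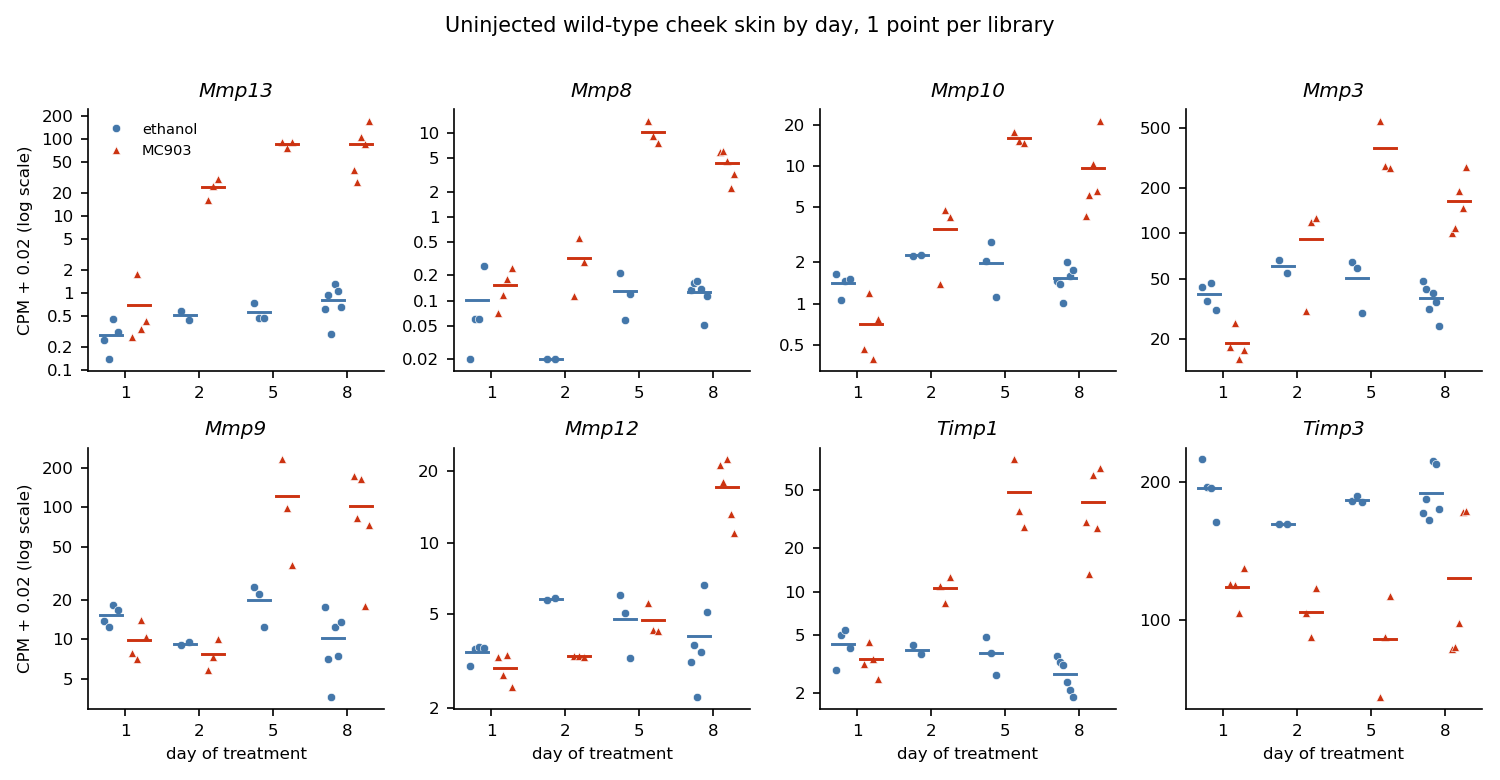
Level of 8 members in each uninjected wild-type skin library at days 1, 2, 5 and 8, in CPM on a log axis, with MC903 and ethanol libraries as separate points and bars at the means. Mmp13 separates from ethanol from day 2 on, Mmp8, Mmp10, Mmp3, Mmp9 and Timp1 by day 5 and Mmp12 at day 8, while Timp3 lies lower with MC903 at days 1, 2 and 5, of which day 2 did not pass the test.

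At day 8, with 5 MC903 and 6 ethanol libraries, 19 of 44 members tested were higher (background 12.2%) and 5 lower (background 11.2%), with a median log2 fold change of 0.65 over the members tested and -0.03 over all genes tested. By role, all 3 collagenases rose, as did 1 of 2 gelatinases, each of the 3 stromelysins tested, the metalloelastase Mmp12, 3 of 6 membrane-type MMPs, 1 of 6 other MMPs, 5 of 7 proteoglycan-cutting ADAMTS genes, 1 of 2 COMP-cutting ADAMTS genes and 1 of 4 TIMPs. The genes that fell were 1 proteoglycan-cutting ADAMTS, 1 of 3 N-proteinases, 2 of 6 other ADAMTS genes and 1 TIMP. Adamts13 did not pass (0.00, adjusted p = 0.989).

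Mmp13 was at 39.9, 27.5, 104, 85.9 and 169 CPM with MC903 and 0.280 to 1.31 (median 0.788) CPM with ethanol (log2FC 6.81 ± 0.43, adjusted p = 3.1e-07). The groups lay far apart, and the fold change was 6.596 in cohort A and 7.004 in cohort B alone. Mmp8 was at 5.98, 6.02, 4.57, 2.21 and 3.22 CPM with MC903 and 0.0307 to 0.152 (median 0.115) CPM with ethanol (log2FC 5.195 ± 0.26, adjusted p = 3.5e-08). Mmp1b was at 0.305, 0.222, 1.401, 0.833 and 0.655 CPM with MC903 and 0 to 0.0508 (median 0) with ethanol, at least 8.02-fold higher (adjusted p = 5.0e-04). No collagenase overlapped between the groups.

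Mmp3 was at 100.3, 108, 191, 147 and 275 CPM with MC903 and 24.4 to 48.5 (median 37.7) CPM with ethanol (log2FC 2.15 ± 0.26, adjusted p = 8.2e-05), Mmp10 at 4.33, 6.16, 10.3, 6.57 and 21.1 CPM with MC903 and 0.991 to 1.98 (median 1.498) CPM with ethanol (log2FC 2.71 ± 0.31, adjusted p = 5.1e-05) and Mmp11 at 125.8, 191, 124.1, 34.9 and 68.3 CPM with MC903 and 7.79 to 23.6 (median 16.5) CPM with ethanol (log2FC 2.56 ± 0.26, adjusted p = 1.9e-05). For all 3 stromelysins the MC903 libraries lay above the ethanol libraries. Mmp9 was at 172, 82.5, 164, 17.97 and 73.4 CPM with MC903 and 3.61 to 17.6 (median 9.91) CPM with ethanol (log2FC 3.11 ± 0.53, adjusted p = 0.00108), with the lowest MC903 library just above the highest ethanol library, and the fold change was 3.89 in cohort A and 2.03 in cohort B. Mmp2, the other gelatinase, did not pass (0.47, adjusted p = 0.0717).

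The macrophage elastase Mmp12 was at 21.2, 18.04, 22.4, 13.1 and 10.9 CPM with MC903 and 2.21 to 6.63 (median 3.56) CPM with ethanol (log2FC 2.12 ± 0.29, adjusted p = 2.3e-04), without overlap, and its fold change was 2.78 in cohort A (adjusted p = 2.9e-04) and 1.25 in cohort B (0.0219). Among membrane-type MMPs, Mmp14 was at 356, 486, 398, 234 and 274 CPM with MC903 and 119.3 to 256 (median 191) CPM with ethanol (log2FC 0.80 ± 0.19, adjusted p = 0.00865) and its groups overlapped. Mmp16 was higher by 1.34 (adjusted p = 8.9e-04) and Mmp25, an MMP of neutrophils, by 1.51 (adjusted p = 0.00769), the latter with overlap. Mmp19 was at 27.1, 33.5, 63.6, 32.6 and 65.8 CPM with MC903 and 14.3 to 21.6 (median 16.7) CPM with ethanol (log2FC 1.395 ± 0.24, adjusted p = 0.00116). Within the chromosome 9 cluster, Mmp27 (-0.51, adjusted p = 0.206) and Mmp20 (-1.75, 0.0657) did not pass, and Mmp7 had too few counts to be tested.

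Among ADAMTS genes the aggrecanase Adamts4 had the smallest p, at 18.3, 21.04, 30.7, 14.5 and 28.6 CPM with MC903 and 2.77 to 5.001 (median 3.68) CPM with ethanol (log2FC 2.62 ± 0.21, adjusted p = 2.9e-06). Adamts1 was at 131.3, 100.2, 124.1, 75.7 and 114.5 CPM with MC903 and 43.6 to 70.4 (median 54.9) CPM with ethanol (log2FC 0.93 ± 0.13, adjusted p = 2.1e-04). Neither overlapped, whereas Adamts9 (0.77, adjusted p = 0.00527) and Adamts15 (0.71, adjusted p = 0.025) did, and Adamts5, a second aggrecanase, was higher by 0.62 (adjusted p = 0.00517) and Adamts7 by 1.11 (adjusted p = 0.0018). Adamts15 was called in 7 of 11 fits that left out 1 library, with an adjusted p of up to 0.0694.

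Adamts20, which had risen at 6 hours, was now at 6.87, 1.80, 3.81, 14.2 and 8.46 CPM with MC903 and 22.5 to 37.5 (median 29.9) CPM with ethanol (log2FC -2.15 ± 0.34, adjusted p = 5.9e-04). Adamts18 was at 5.53, 2.36, 3.50, 12.8 and 10.5 CPM with MC903 and 14.2 to 23.1 (median 20.1) CPM with ethanol (log2FC -1.57 ± 0.26, adjusted p = 9.5e-04). Adamts19 was lower by 2.65 (0.00427) and Adamts3 by 1.91 (0.00407), and none of these genes overlapped between the groups. Hair follicle markers moved the same way, with 7 of 8 lower and sums of 637 to 8992 CPM with MC903 and 7710.3 to 21428 with ethanol. Their part in the result was not tested.

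The inhibitors did not move together. Timp1 was at 30.2, 13.3, 64.004, 27.4 and 71.7 CPM with MC903 and 1.85 to 3.57 (median 2.71) CPM with ethanol (log2FC 3.96 ± 0.40, adjusted p = 1.7e-05), without overlap. Timp3 was at 86.2, 86.9, 98.4, 172 and 173 CPM with MC903 and 165 to 222 (median 179) CPM with ethanol (log2FC -0.61 ± 0.14, adjusted p = 0.00755), with overlap, and was lower by 0.93 in cohort A (adjusted p = 0.00368) against 0.25 in cohort B (0.406). Timp2 (-0.25, adjusted p = 0.324) and Timp4 (-0.19, 0.666) did not pass. As summed RPKM, the Mmp genes were at 100.03 ± 7.65 with MC903 and 161 ± 18.9 with ethanol at day 1, 501 ± 168 and 220.0 ± 64.5 at day 5 and 400.4 ± 69.8 and 162 ± 41.4 at day 8 (mean ± SD). The summed Timp genes were at 88.9 ± 5.99 and 143 ± 7.43 RPKM at day 1 and 138 ± 25.5 and 115.6 ± 26.1 at day 8, and the summed Adamts genes at 76.7 ± 11.9 and 55.97 ± 9.58 at day 8.

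Days 1 and 8 shared 9 called members, of 15 and 24, and 8 of these changed in opposite directions: Adamts3, Adamts19 and Adamts20 were higher and then lower, and Adamts9, Mmp3, Mmp11, Mmp14 and Mmp25 lower and then higher. Days 5 and 8 shared 13, of 18 and 24, all in the same direction. Each day has its own ethanol libraries. Reversal and agreement over all genes called on both days were not counted, so neither can be read as particular to the members. Leukocyte markers moved with the day 8 result. Neutrophil markers were higher for 11 of 12 genes, with sums of 208 to 609.7 CPM with MC903 and 25.2 to 47.3 with ethanol, and already 159 to 319 and 26.1 to 40.8 at day 5 but 23.5 to 36.1 and 31.3 to 37.2 at day 1. Of the macrophage and monocyte markers, 7 of 10 were higher (679 to 1637 and 436 to 800.3 CPM). Basal keratinocyte markers summed to 9757 to 20443 and 4286 to 6401 CPM. Their part in the rise of Mmp8, Mmp9, Mmp12 and Mmp25 was not tested.

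**Figure D3:**
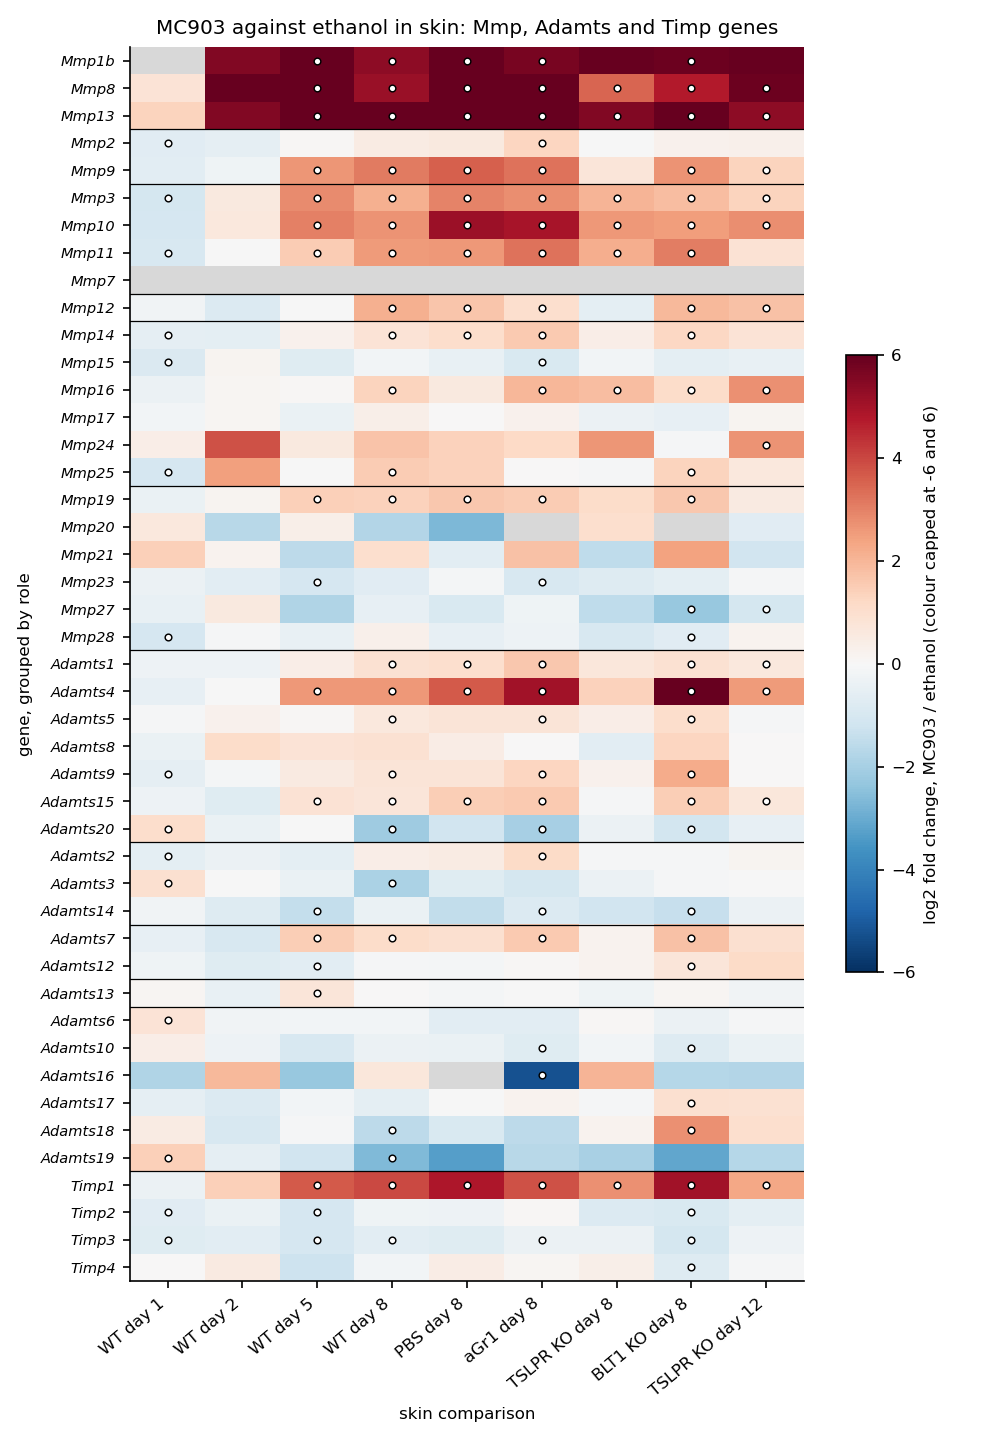
Log2 fold change of MC903 over ethanol for the 45 members (rows, grouped by role) in the 9 skin comparisons (columns), on a colour scale that stops at 6 in either direction. Open circles mark genes past the adjusted p of 0.05 and grey marks genes not tested. Mmp13, Mmp8, Mmp10, Mmp3 and Timp1 are higher and called in 7 of the 9 columns, and no gene is called at day 2.

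Genes that act on these proteases or are cut by them were counted from lists at day 8, when 12.2% of all genes tested were higher and 11.2% lower. Of the activators and the plasminogen system, 7 of 14 tested were higher and 1 lower (median log2 fold change 1.16), led by the kallikreins Klk6 (3.79) and Klk8 (2.97) and the urokinase receptor Plaur (2.65). Of the other inhibitors and binding partners, 6 of 12 tested were higher and 1 lower (median log2 fold change 0.72), with Lcn2, a partner of MMP9, at 3.64, Tfpi2 at 3.10 and Thbs2 at 1.12. Among ADAMTS-like proteins, which lack a protease domain, 1 of 5 tested were higher and 1 lower (median log2 fold change -0.58): Adamtsl5 at 0.47 and Adamtsl4 at -0.69.

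Of the astacin procollagen C-proteinases and their enhancers, 0 of 5 tested were higher and 1 lower (median log2 fold change -0.16), the latter being Pcolce2 at -1.13. Of the proteoglycan substrates, 0 of 10 tested were higher and 1 lower (median log2 fold change -0.14), the latter being Acan (aggrecan) at -1.03. Among basement membrane substrates 4 of 11 tested were higher and 0 lower (median log2 fold change 0.20), among them Col7a1 (0.73) and Lama3 (0.63). Among AP-1 and ETS factors 4 of 10 tested were higher and 0 lower (median log2 fold change 0.25), with Fos at 2.22, Fosl1 at 2.07 and Ets1 at 1.35. All genes tested had a median of -0.03, with 12.2% higher and 11.2% lower. A single call in a list of 5 or 10 genes is therefore no result about that list.

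Next, the injected and knockout arms of day 8 were compared with their own ethanol libraries. In PBS-injected mice 14 of 43 members tested were higher (background 3.26%) and 0 lower (background 0.721%), with a median log2 fold change of 0.51 over the members tested and -0.01 over all genes tested. Mmp10 was at 15.96 and 16.4 CPM with MC903 and 0.5004, 0.434 and 0.494 CPM with ethanol (log2FC 5.11 ± 0.24, adjusted p = 7.3e-04). Timp1 was at 41.5 and 59.8 CPM with MC903 and 1.88, 2.20 and 1.41 CPM with ethanol (log2FC 4.83 ± 0.28, adjusted p = 0.00134), and Mmp13 at 76.5 and 156 CPM with MC903 and 0.125, 0.542 and 0.353 CPM with ethanol (log2FC 8.47 ± 0.57, adjusted p = 0.00175). Each of the 14 genes had its MC903 libraries above the ethanol libraries, and the others were Mmp8 (6.22, adjusted p = 0.00405), Mmp11 (2.58, adjusted p = 0.00272), Adamts4 (3.70, adjusted p = 0.011), Mmp9 (3.57, adjusted p = 0.016), Mmp3 (2.96, adjusted p = 0.0164), Mmp12 (1.68, adjusted p = 0.0297), Mmp14 (1.04, adjusted p = 0.0387), Mmp19 (1.60, adjusted p = 0.0476), Adamts1 (0.99, adjusted p = 0.0349) and Adamts15 (1.46, adjusted p = 0.0411). Mmp1b was at least 9.91-fold higher (adjusted p = 0.0205). Among all 43 members tested, 22 lay above and 5 below the ethanol libraries without overlap, so separation was not limited to called genes. Such separation was not counted over all genes. Timp2, Timp3 and Timp4 did not pass, at -0.29, -0.75 and 0.44 (adjusted p = 0.606, 0.398 and 0.73). With 2 MC903 libraries the calls rested on single libraries: 3 were made without ethanol replicate 1 and 15 without ethanol replicate 2.

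In aGr1-injected mice 20 of 43 members tested were higher (background 15.1%) and 7 lower (background 17.5%), with a median log2 fold change of 0.78 over the members tested and -0.02 over all genes tested. Mmp11 was at 73.8, 75.8, 100.1 and 95.5 CPM with MC903 and 9.94, 9.46, 7.64 and 9.15 CPM with ethanol (log2FC 3.25 ± 0.15, adjusted p = 3.7e-06). Mmp9 was at 103, 101, 93.3 and 145 CPM with MC903 and 12.2, 13.8, 9.84 and 10.7 CPM with ethanol (log2FC 3.24 ± 0.18, adjusted p = 7.9e-06), and Mmp10 at 23.3, 22.7, 23.7 and 36.6 CPM with MC903 and 0.535, 0.712, 1.08 and 1.06 CPM with ethanol (log2FC 4.97 ± 0.28, adjusted p = 8.2e-06). None of the 3 overlapped between the groups. Mmp13 was higher by 6.09 (adjusted p = 6.4e-05), Mmp8 by 6.21 (adjusted p = 1.1e-05), Adamts4 by 5.02 (adjusted p = 2.0e-05), Mmp3 by 2.77 (adjusted p = 3.4e-05) and Timp1 by 3.81 (adjusted p = 5.8e-04). Neutrophil markers in these skins summed to 303 to 329 CPM with MC903 and 31.1 to 53.6 with ethanol. The sums were 402 to 492.98 and 35.3 to 50.9 in PBS-injected mice and 208 to 609.7 and 25.2 to 47.3 in uninjected mice. The aGr1 sums with MC903 thus lay within the uninjected range but below the PBS range, and 11 of 11 markers tested were higher. Their median log2FC was 4.51, against 4.42 with PBS and 3.90 in uninjected mice, so these marker transcripts rose in the aGr1 arm too. Whether cells other than neutrophils add to the sums was not tested, so the sums do not measure depletion. The paper counted neutrophils by flow cytometry and reports that the antibody reduced them in treated skin.

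Some genes that fell at 6 hours in wild-type skin rose here: Mmp2 was at 384, 489, 379.8 and 244 CPM with MC903 and 130.2, 141, 171 and 163 CPM with ethanol (log2FC 1.30 ± 0.21, adjusted p = 0.00176), Mmp14 was higher by 1.59 (adjusted p = 1.7e-04) and the N-proteinase Adamts2 by 1.15 (adjusted p = 6.5e-04). Mmp14 also rose in uninjected skin at day 8. Mmp15 and Timp3 fell both at 6 hours and here, and Timp2, Mmp25 and Mmp28, which fell at 6 hours, were not called here. Mmp12 was at 12.4, 5.94, 15.2 and 13.9 CPM with MC903 and 4.23, 6.20, 5.05 and 8.33 CPM with ethanol (log2FC 0.99 ± 0.31, adjusted p = 0.0361), with overlap, and its call held in 2 of 8 fits that left out 1 library. Adamts14 fell by 0.81 on the log2 scale (adjusted p = 0.00228), Adamts20 by 2.01 (0.00414), Mmp23 by 0.96 (0.00983), Mmp15 by 0.90 (0.0416), Adamts10 by 0.72 (0.0262) and Timp3 by 0.37 (0.0346), of which Mmp15 and Timp3 were called in 2 of 8 and Adamts10 in 3 of 8 such fits. Timp2 (0.06, 0.8) and Timp4 (0.10, 0.869) did not pass. Gland markers were at 154850.0, 285070.0, 29151 and 78691 CPM in the ethanol libraries and 8.47 to 6739 with MC903. Without the 2 ethanol libraries above 100000 CPM there were 25 calls, 20 higher and 5 lower, of which 22 were among the 27, and Mmp12, Mmp15, Adamts10 and Timp3 were among those lost.

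In TSLPR KO mice at day 8, 7 of 44 members tested were higher (background 1.31%) and 0 lower (background 1.14%), with a median log2 fold change of 0.14 over the members tested and 0.00 over all genes tested. Mmp13 was at 52.3, 66.6 and 40.1 CPM with MC903 and 1.51 and 0.723 CPM with ethanol (log2FC 5.55 ± 0.42, adjusted p = 3.7e-04). Mmp11 was at 48.97, 47.5 and 53.7 CPM with MC903 and 12.1 and 9.77 CPM with ethanol (log2FC 2.19 ± 0.23, adjusted p = 0.00161), and Timp1 at 18.4, 19.3 and 11.6 CPM with MC903 and 2.93 and 1.87 CPM with ethanol (log2FC 2.76 ± 0.35, adjusted p = 0.00438). These groups did not overlap. Mmp16 was higher by 1.83 (adjusted p = 0.0155), Mmp3 by 2.03 (adjusted p = 0.0169), Mmp10 by 2.59 (adjusted p = 0.0181) and Mmp8 by 3.49 (adjusted p = 0.0463), of which Mmp16 and Mmp8 were called in 1 of 5 fits that left out 1 library, Mmp3 in 3 of 5 and Mmp10 in 4 of 5. Without MC903 replicate 1 there were 4 calls. Mmp12 did not pass, at 6.80, 7.06 and 5.98 CPM with MC903 and 14.1 and 5.89 CPM with ethanol (log2FC -0.60 ± 0.36, adjusted p = 0.476), and neither did Timp2 (-0.84, 0.172), Timp3 (-0.33, 0.603) or Timp4 (0.36, 0.815).

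In the libraries labelled BLT1 KO, 22 of 43 members tested were higher (background 14.1%) and 8 lower (background 14.6%), with a median log2 fold change of 0.95 over the members tested and -0.04 over all genes tested. Adamts4 was at 45.3, 49.1 and 30.9 CPM with MC903 and 0.502, 0.356 and 0.630 CPM with ethanol (log2FC 6.38 ± 0.29, adjusted p = 8.4e-06). Timp1 was at 103, 72.4 and 56.6 CPM with MC903 and 2.46, 2.47 and 2.12 CPM with ethanol (log2FC 5.03 ± 0.25, adjusted p = 1.0e-05), and Mmp13 at 75.2, 63.96 and 58.9 CPM with MC903 and 0.236, 0.356 and 0.882 CPM with ethanol (log2FC 7.10 ± 0.44, adjusted p = 2.2e-05). None overlapped. Mmp9 was higher by 2.70 (adjusted p = 2.9e-05), Mmp11 by 3.05 (adjusted p = 1.4e-04), Mmp10 by 2.50 (adjusted p = 1.5e-04), Mmp12 by 1.95 (adjusted p = 1.9e-04), Mmp8 by 4.76 (adjusted p = 0.00502) and Adamts12 by 0.74 (adjusted p = 0.0248), and Mmp1b at least 22.9-fold (8.1e-04).

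All 3 other inhibitors fell in the BLT1 KO arm: Timp3 at 142, 132.8 and 127.2 CPM with MC903 and 301, 252 and 268 CPM with ethanol (log2FC -1.04 ± 0.13, adjusted p = 5.2e-04), Timp2 at 289, 297 and 284 CPM with MC903 and 527, 563 and 555 CPM with ethanol (log2FC -0.93 ± 0.13, adjusted p = 7.9e-04) and Timp4 at 3.38, 3.58 and 3.52 CPM with MC903 and 6.43, 5.13 and 6.17 CPM with ethanol (log2FC -0.77 ± 0.21, adjusted p = 0.0233). No MC903 library of these reached an ethanol library. Timp4 was called in 1 of 6 fits that left out 1 library, Timp2 and Timp3 in each, Mmp28 in 1 of 6 and Adamts12 in 3 of 6. Also lower were Adamts14 (-1.39, adjusted p = 0.00279), Adamts10 (-0.75, adjusted p = 0.00418), Adamts20 (-1.09, adjusted p = 0.0113), Mmp27 (-2.28, adjusted p = 0.00939) and Mmp28 (-0.67, adjusted p = 0.0304). Hair follicle markers were at 270.5 to 858 CPM with MC903 and 27.03 to 344 with ethanol in this arm, against 7710.3 to 21428 in uninjected ethanol skin, and their part was not tested.

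At day 12 in TSLPR KO mice, 12 of 44 members tested were higher (background 5.41%) and 1 lower (background 4.62%), with a median log2 fold change of 0.25 over the members tested and -0.02 over all genes tested. Mmp13 was at 57.2, 28.8, 44.5 and 59.1 CPM with MC903 and 1.13, 1.12 and 1.30 CPM with ethanol (log2FC 5.35 ± 0.31, adjusted p = 6.3e-05). Mmp8 was at 12.7, 4.48, 4.91 and 9.09 CPM with MC903 and 0.219, 0.0797 and 0.1001 CPM with ethanol (log2FC 5.88 ± 0.57, adjusted p = 6.0e-04), and Mmp16 at 7.20, 10.6, 9.21 and 8.17 CPM with MC903 and 1.66, 1.46 and 0.935 CPM with ethanol (log2FC 2.72 ± 0.27, adjusted p = 6.0e-04). The groups did not overlap. Mmp10 was higher by 2.79 (adjusted p = 7.8e-04), Adamts4 by 2.55 (adjusted p = 0.00362), Timp1 by 2.34 (adjusted p = 0.00521), Mmp9 by 1.31 (adjusted p = 0.00583), Mmp3 by 1.33 (adjusted p = 0.0124) and Mmp24 by 2.71 (adjusted p = 0.0342), and Mmp27 was lower by 1.05 (0.0302), of which Mmp24 and Mmp27 were called in 2 of 7 fits that left out 1 library. Mmp12 was at 44.9, 14.02, 19.2 and 24.6 CPM with MC903 and 9.04, 7.996 and 5.74 CPM with ethanol (log2FC 1.78 ± 0.38, adjusted p = 0.0205) and lost its call without any 1 of the ethanol libraries. Gland markers were at 123330.0, 12494 and 156820.0 CPM with ethanol and 6024 to 33177 with MC903, and without the 2 ethanol libraries above 100000 CPM only Mmp8, Mmp10, Mmp13 and Mmp16 were called, in a fit where the lone ethanol library is assumed to vary like the others. The total was 9 without MC903 replicate 1 and 16 without MC903 replicate 3. Timp2 (-0.60, 0.121), Timp3 (-0.31, 0.677) and Timp4 (-0.05, 0.936) did not pass.

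Whether the MC903 effect of an arm differed from that of uninjected wild-type skin was tested as an interaction. For aGr1, 2 of 44 members had a larger effect (background 1.2%) and 0 a smaller one (background 3.36%). These were Adamts4, with a difference in log2 fold change of 2.42 ± 0.39 (adjusted p = 0.00494), and Mmp10, with 2.28 ± 0.46 (0.01). Against PBS-injected mice in place of uninjected ones, the differences were 1.36 (adjusted p = 0.433) and -0.10 (0.958), so neither was called against the injected controls. The highest aGr1 ethanol library of Adamts4, at 1.73 CPM, lay under every uninjected ethanol library of that gene. All aGr1 ethanol libraries held more gland marker RNA than the aGr1 MC903 libraries. The interaction was not refitted without the gland-rich libraries, and their part in the result was not tested.

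For TSLPR KO, 0 of 44 members had a larger effect (background 0.0111%) and 1 a smaller one (background 0.166%). This was Mmp12, with a difference of -2.69 ± 0.51 (adjusted p = 0.0448). Its call held in 5 of 16 fits that left out 1 library, with differences from -3.23 to -1.95, and against cohort B alone the difference was -1.84 (adjusted p = 0.282). Macrophage and monocyte markers were at 466.03 to 579 CPM with MC903 and 397 to 622 with ethanol in TSLPR KO skin, where those of wild-type skin had 679 to 1637 and 436 to 800.3, and their part in the result was not tested.

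For the libraries labelled BLT1 KO, 4 of 44 members had a higher log2 fold change than in uninjected skin (background 4.35%) and 0 a lower one (background 2.6%). All 4 were ADAMTS genes. Adamts4 differed by 3.81 ± 0.38 (adjusted p = 2.1e-05). Its ethanol libraries in this arm lay under every ethanol library of uninjected skin, and its MC903 libraries lay above every MC903 library of uninjected skin. Adamts18 differed by 4.36 ± 0.64 (6.0e-04): it was at 3.08, 0.649 and 2.12 CPM with MC903 and 0.251, 0.475 and 0.147 CPM with ethanol in this arm (log2FC 2.73 ± 0.66, adjusted p = 0.0147), and fell in uninjected wild-type skin. Its ethanol level here was under that of every MC903 library of uninjected skin. Adamts9 was at 82.98, 89.3 and 50.3 CPM with MC903 and 18.001, 14.7 and 15.1 CPM with ethanol (log2FC 2.21 ± 0.22, adjusted p = 1.6e-04) and differed by 1.48 ± 0.30 (0.00656). Adamts17 was at 5.23, 4.69 and 3.70 CPM with MC903 and 2.29, 2.41 and 2.29 CPM with ethanol (log2FC 0.95 ± 0.24, adjusted p = 0.0172) and differed by 1.58 ± 0.34 (0.00945), or by 1.44 (0.104) against cohort B alone. Adamts17 was not called in uninjected day 8 skin, where its mean was 0.553 ± 0.234 RPKM with MC903 and 0.849 ± 0.230 with ethanol. The 4 calls held in each fit that left out 1 library.

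Mmp13 and Timp1 were not called in the interaction tests of skin: Mmp13 differed by -0.69 (aGr1, adjusted p = 0.615), -1.22 (TSLPR KO, 0.467) and 0.34 (BLT1 KO, 0.835), and Timp1 by -0.13 (0.961), -1.16 (0.467) and 1.12 (0.272). The standard errors for Mmp13 were 0.67, 0.67 and 0.66 on the log2 scale.

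**Figure D4:**
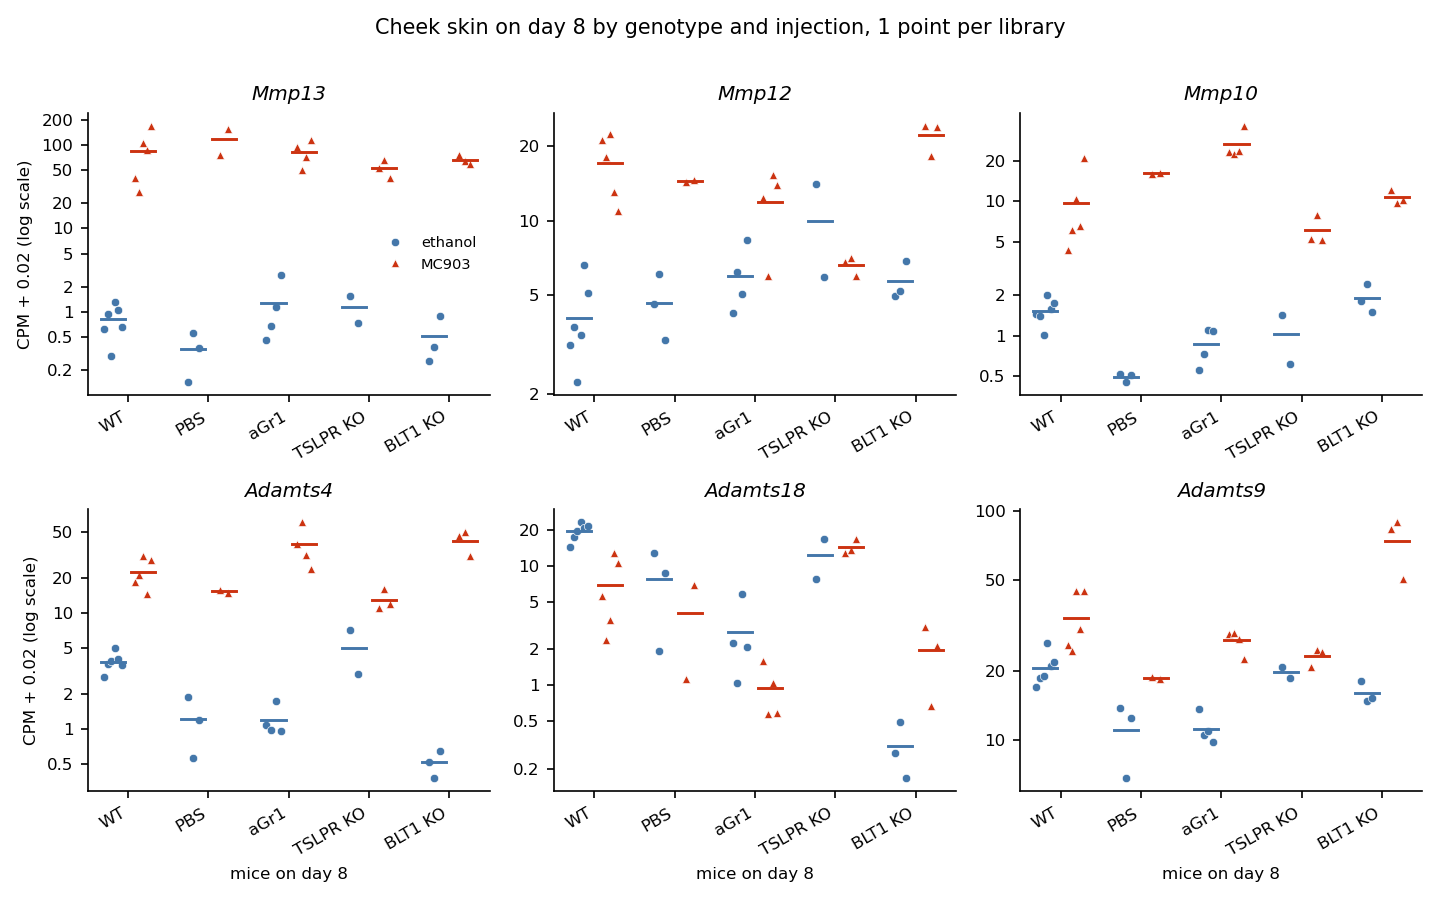
Level of Mmp13, Mmp12, Mmp10, Adamts4, Adamts18 and Adamts9 in each day 8 skin library of the 5 arms (uninjected wild-type, PBS, aGr1, TSLPR KO, BLT1 KO), in CPM on a log axis, with MC903 and ethanol libraries as separate points and bars at the means. Mmp13 is higher with MC903 in all 5 arms, Mmp12 overlaps in TSLPR KO skin, and Adamts18 is lower with MC903 in uninjected skin and higher in the BLT1 KO arm.

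In trigeminal ganglia few members changed. At day 1 none of 41 passed an adjusted p of 0.1 (background 0% in either direction), and 6 were under 0.05 unadjusted. At day 2 none of 39 passed (background 0%), and 3 were under 0.05 before adjustment. DESeq2 called none at either day. At day 5 none of 40 passed (background 0.00823% higher and 0% lower) by edgeR, 3 had an unadjusted p under 0.05 and DESeq2 called 1. The edgeR fit was unpaired, and blocking replicates by number called 1 member, Adamts8 (below). At day 8 1 of 39 was higher (background 0.125%) and 0 lower (background 0.0352%). This gene was Adamts8, a proteoglycan-cutting ADAMTS with anti-angiogenic activity.

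Adamts8 was at 10.4, 10.4, 2.13, 6.003 and 4.53 CPM with MC903 and 3.25, 3.08, 2.32, 1.61 and 1.75 CPM with ethanol at day 8 (log2FC 1.38 ± 0.26, adjusted p = 0.0846), with 1 MC903 library among the ethanol libraries, and its call held in 3 of 10 fits that left out 1 library, with an adjusted p of up to 0.41. In PBS-injected mice it was at 13.1, 9.23, 16.01 and 8.21 CPM with MC903 and 3.68, 5.004 and 4.82 CPM with ethanol (log2FC 1.34 ± 0.21, adjusted p = 0.00577). In aGr1-injected mice it was at 8.09, 8.29, 9.93 and 10.7 CPM with MC903 and 4.28, 4.78, 4.30 and 4.23 CPM with ethanol (log2FC 1.08 ± 0.14, adjusted p = 0.0019). In these 2 arms the groups did not overlap. In ganglia labelled TSLPR KO, Adamts8 was at 13.9, 10.2, 11.2 and 9.76 CPM with MC903 and 6.50, 4.55, 4.32 and 4.66 CPM with ethanol at day 12 (log2FC 1.16 ± 0.15, adjusted p = 0.0101), without overlap, and at 4.75 and 7.71 CPM with MC903 and 2.66 and 2.29 CPM with ethanol at day 8 (log2FC 1.32 ± 0.41, adjusted p = 0.601). Of the earlier days, at day 5 it was at 3.18, 4.82 and 9.62 CPM with MC903 and 1.05, 1.90 and 2.28 CPM with ethanol (log2FC 1.75 ± 0.45, adjusted p = 1, and 1.68, adjusted p = 0.063, when replicates were blocked by number). At days 1 and 2 the fold changes were -0.34 (0.605) and 0.32 (0.815). In skin Adamts8 passed in none of the 9 comparisons.

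PBS-injected mice had 5 higher members of 38 tested (background 1.91%) and 3 lower (background 1.45%). Timp1 was at 2.81, 2.85, 3.16 and 2.43 CPM with MC903 and 1.04, 0.842 and 1.57 CPM with ethanol (log2FC 1.27 ± 0.22, adjusted p = 0.0114), without overlap. Mmp14 was higher by 0.46 (adjusted p = 0.0143), Adamts1 by 0.35 (adjusted p = 0.0345) and Adamts15 by 0.35 (adjusted p = 0.044). Adamts20 was lower by 0.44 (0.0269), Adamts9 by 0.49 (0.0319) and Mmp2 by 0.56 (0.0488), the last called in 2 of 7 fits that left out 1 library. The total of calls was 4 without ethanol replicate 1 and 14 without MC903 replicate 4. Adamts1 and Adamts15 were called in 3 of 7 such fits. Mmp2 was at 9.65, 8.12, 7.92 and 7.01 CPM with MC903 and 14.5, 10.8 and 10.7 CPM with ethanol. Fibroblast markers were lower for 4 of 8 genes (759.6 to 889 CPM with MC903 and 1001 to 1032 with ethanol), and their part in the lower Mmp2 was not tested.

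In aGr1-injected mice 2 of 38 members were higher (background 0.875%) and 2 lower (background 1.01%). Mmp2 was at 5.19, 5.75, 7.25 and 5.66 CPM with MC903 and 13.04, 12.7, 16.2 and 11.1 CPM with ethanol (log2FC -1.15 ± 0.15, adjusted p = 0.0019), without overlap. Fibroblast markers were lower for 4 of 8 genes (695 to 1092 CPM with MC903 and 1054 to 1522 with ethanol), and their part in the result was not tested. Besides Adamts8 and Mmp2, Mmp25 was higher by 0.48 (adjusted p = 0.0815) and Adamts5 lower by 0.39 (0.0691), each called in 2 of 8 fits that left out 1 library. Timp1 did not pass (0.77, 0.217). No member passed the interaction test of the aGr1 against the uninjected arm (background 0%), where 3 had an unadjusted p under 0.05 and DESeq2 called none.

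Ganglia labelled TSLPR KO had no called member of 39 at day 8 by edgeR (background 0%), 4 with an unadjusted p under 0.05 and 1 called by DESeq2. Mmp8 was at 5.11 and 1.06 CPM with MC903 and 0 and 0 CPM with ethanol, at least 31.6-fold higher than the floor (adjusted p = 0.601). The library with the higher Mmp8 also held 103 CPM of neutrophil markers, against 20.8 in the other, and the part of these in the result was not tested. Without MC903 replicate 2 there were 4 calls. No member passed the interaction test (background 0%), where 6 had an unadjusted p under 0.05 and DESeq2 called 1. At day 12, 2 of 39 were higher (background 0.289%) and 0 lower (background 0.0154%): Adamts8, and Timp1 at 2.07, 3.83, 2.98 and 2.27 CPM with MC903 and 1.45, 1.34, 1.11 and 1.17 CPM with ethanol (log2FC 1.14 ± 0.22, adjusted p = 0.0819). The Timp1 call held in 2 of 8 fits that left out 1 library, with an adjusted p of up to 0.355. Same-numbered libraries of this comparison deviated together, and blocking replicates by number gave 5 called members, adding Adamts15 (0.45, adjusted p = 0.0367) and Mmp8 (1.34, 0.076) as higher and Adamts10 (-0.41, 0.0856) as lower.

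The other inhibitors were called in no ganglion comparison: over the 8 comparisons the log2 fold changes ran from -0.48 to 0.10 for Timp2, -0.29 to 0.10 for Timp3 and -1.23 to 1.77 for Timp4. Over the members tested, the median of the log2 fold changes was between -0.12 and 0.08 across the 8 comparisons, and over all genes tested between 0.00 and 0.02.

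Spinal cord at day 8 had 3 higher members of 40 tested in uninjected mice (background 5.05%) and 5 lower (background 7.14%), with a median log2 fold change of -0.08 over the members tested and 0.01 over all genes tested. The inhibitor Timp4 was at 80.7, 74.1, 69.1 and 78.2 CPM with MC903 and 38.0, 39.99, 40.5, 36.7 and 32.5 CPM with ethanol (log2FC 0.99 ± 0.08, adjusted p = 4.7e-06). The procollagen N-proteinase Adamts2 was at 21.7, 21.4, 23.6 and 20.5 CPM with MC903 and 39.0, 39.9, 50.3, 41.5 and 42.3 CPM with ethanol (log2FC -0.98 ± 0.09, adjusted p = 1.5e-05), and the aggrecanase Adamts4, a gene of oligodendrocytes in cord, at 51.6, 46.6, 55.98 and 39.6 CPM with MC903 and 90.8, 90.6, 84.9, 90.9 and 86.01 CPM with ethanol (log2FC -0.89 ± 0.10, adjusted p = 4.8e-05). None of the 3 overlapped between the groups. Mmp15 was lower by 0.82 (1.0e-04) and Mmp17 by 0.38 (0.00836), and Adamts14 was at 3.59, 2.87, 1.42 and 2.19 CPM with MC903 and 0.709, 0.273, 0.534, 1.24 and 0.705 CPM with ethanol (log2FC 1.86 ± 0.37, adjusted p = 0.00482).

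Mmp8 was at 1.33, 1.08, 5.58 and 0.681 CPM with MC903 and 0.319, 0.512, 0.534, 0.906 and 0.294 CPM with ethanol (log2FC 2.06 ± 0.57, adjusted p = 0.0306), with overlap. Without MC903 replicate 3 it did not pass, with an adjusted p of 0.159, and the call held in 5 of 9 such fits. Mmp2 was lower by 0.83 (0.0453), a call that held only without ethanol replicate 1. The total was 6 without MC903 replicate 3 and 12 without ethanol replicate 1. Microglia markers were lower for 5 of 5 genes (119.97 to 179 CPM with MC903 and 256 to 332 with ethanol), and oligodendrocyte markers for 4 of 5 (16514 to 21329 and 18187 to 21743 CPM). Fibroblast markers were lower for 7 of 8 (235 to 262 and 320.5 to 616 CPM), without overlap, and endothelial markers for 4 of 5 (31.2 to 36.7 and 51.1 to 66.3 CPM). The part of these markers in the lower Adamts2, Adamts4, Mmp2 and Mmp15 was not tested.

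In PBS-injected mice, with 2 libraries a group, no member of 39 passed by edgeR (background 0%), 7 had an unadjusted p under 0.05 and DESeq2 called 2. Timp4 was at 84.002 and 58.2 CPM with MC903 and 39.0 and 40.8 CPM with ethanol (log2FC 0.84 ± 0.19, adjusted p = 0.465), without overlap. Leaving out MC903 replicate 2 gave 6 calls. In aGr1-injected mice, with 8 MC903 and 6 ethanol libraries, 2 of 39 were higher (background 4.54%) and 6 lower (background 6.79%), with a median log2 fold change of -0.07 over the members tested and 0.01 over all genes tested. Timp4 was at 66.5 to 86.2 (median 72.9) CPM with MC903 and 45.2 to 55.1 (median 47.6) CPM with ethanol (log2FC 0.64 ± 0.07, adjusted p = 5.2e-06), without overlap, and Mmp8 at 2.61 to 13.2 (median 4.71) CPM with MC903 and 0.660 to 2.83 (median 1.23) CPM with ethanol (log2FC 2.07 ± 0.38, adjusted p = 0.00113), with overlap. Neutrophil markers in these cords summed to 53.1 to 234 CPM with MC903 and 32.9 to 81.9 with ethanol, and their part in the rise of Mmp8 was not tested.

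Adamts2 was lower by 0.58 in the aGr1 arm (6.3e-05), Adamts4 by 0.50 (2.4e-04), Mmp15 by 0.49 (2.6e-04), Mmp2 by 0.83 (5.7e-04), Adamts20 by 0.33 (0.0016) and Mmp23 by 0.97 (0.00998). Of the uninjected arm's 8 calls and the aGr1 arm's 8, 6 were shared and in the same direction: Timp4 and Mmp8 higher, and Adamts2, Adamts4, Mmp2 and Mmp15 lower. Agreement over all genes called in both arms was not counted. No member of 40 passed the interaction test between these arms by edgeR or DESeq2 (background 0.125% higher and 0.407% lower), and 11 had an unadjusted p under 0.05. Timp1, Timp2 and Timp3 did not pass in uninjected cord, at -0.15 (0.83), 0.01 (0.961) and -0.06 (0.794), nor in the aGr1 arm, at 0.16 (0.704), 0.12 (0.0967) and -0.15 (0.438).

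**Figure D5:**
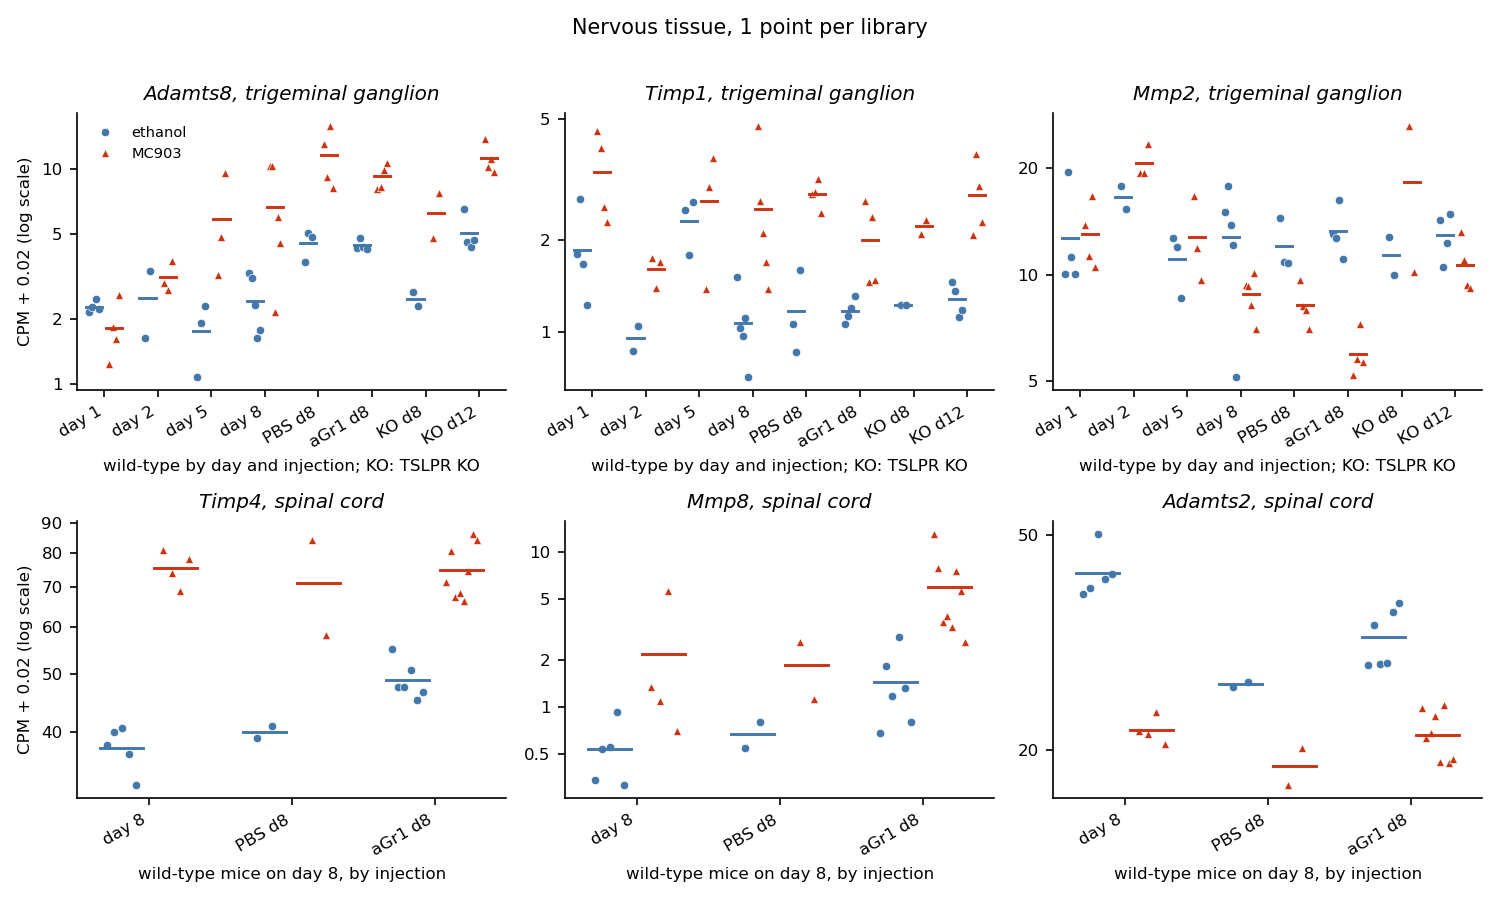
Level of Adamts8, Timp1 and Mmp2 in each ganglion library of 8 comparisons and of Timp4, Mmp8 and Adamts2 in each cord library of 3, in CPM on a log axis, with MC903 and ethanol libraries as separate points and bars at the means. Adamts8 separates from ethanol in the PBS, aGr1 and day 12 TSLPR KO ganglia, and Timp4 lies higher and Adamts2 lower with MC903 in uninjected cord.

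Across the 9 skin comparisons 40 of the 45 members were called at least once (background 49% of all genes tested in any of them), 18 only as higher, 10 only as lower and 12 in both directions. Mmp13, Mmp8, Mmp10 and Timp1 were called higher in 7 of the 9, all but days 1 and 2, and Mmp3 was higher in the same 7 and lower at day 1. Adamts4, Adamts15, Mmp9 and Mmp11 were called higher in 6. Timp3 was the member most often called lower, in 5. The genes called only as lower were Adamts10, Adamts14, Adamts16, Mmp15, Mmp23, Mmp27, Mmp28, Timp2, Timp3 and Timp4. Adamts8, Mmp7, Mmp17, Mmp20 and Mmp21 were never called in skin, where Mmp7 was never tested.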

How the data were processed

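The authors selected poly(A) RNA from bulk tissue, sequenced it single-end, mapped the reads to mm10 with Bowtie2 and TopHat (TopHat2 in the submitters' processing notes) and deposited raw counts per Ensembl gene from htseq-count, with no normalization. The annotation release and the strand setting are not given in the sources used here. Reads on no gene, which took 6.15 to 21.5% of each library's total, and the other tally lines stayed out of totals and tests.

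Symbols and coordinates came from GENCODE M21 (GRCm38), to which 45143 of 46078 identifiers matched. Each comparison was fitted on its own libraries by the quasi-likelihood F test of edgeR 4.0.16 (R 4.3.3, TMM normalization), for genes whose counts summed to 10 or more, with Benjamini-Hochberg adjustment over all genes tested, and interactions were fitted over both arms. Thresholds (0.05, and 0.1 in ganglia) follow the study's methods, which used DESeq. The script was tested on simulated data. The alternatives were DESeq2 1.42.0, its size factors in edgeR, no filter, a replicate block, single cohorts, other reference groups and leaving out each library. RPKM used the exon length of each gene. A fold against a group at or under 3 counts in each library was computed against 3 counts per library. The precision is set by these counts and by groups of 2 to 8 libraries, of 15931871 to 67342879 counts each.

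Named are the Timp genes, members called in at least 2 skin comparisons, up to 3 per direction in each comparison by smallest p, and members called in ganglia, cord or an interaction. The members and the gene lists were chosen with earlier results of these data known. Replicate numbers come from the labels, which tie them to no shared day or batch. In comparisons with 3 or more pairs, deviations of same-numbered libraries from their group means were correlated across genes. The correlation was over 0.1 in every pair only in ganglia of day 5 (lowest r 0.157) and of day 12 (lowest r 0.209). The reported fits of these ganglia hold no replicate term, and fits blocked by replicate number are given beside them. The 2 pairs of skin at day 2 (r 0.196 and 0.239) were too few for this rule. The 18 wild-type libraries of day 12 were not used here.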

Additional observations from a re-analysis of the deposited data

Results flagged for a closer look

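In 11 of 196 groups of 4 to 10 libraries (5.61%) the highest or lowest library lay apart from the others by Dixon's 95% critical value, which chance reaches in about 1 group in 20. In skin, these were the lowest Adamts1 library of MC903-treated TSLPR KO mice at day 12 (84.4 CPM, next 92.9), the lowest Adamts20 library of ethanol-treated mice at day 1 (12.2 CPM, next 18.4) and, in the aGr1 arm, the lowest Adamts2 library with MC903 (146 CPM, next 216), the highest Mmp10 library with MC903 (36.6 CPM, next 23.7), the highest Adamts4 library with ethanol (1.73 CPM, next 1.07) and the highest Mmp8 library with ethanol (0.216 CPM, next 0.0626).

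In ganglia, the highest ethanol library of Adamts8 stood apart in the aGr1 arm (4.78 CPM, next 4.30) and in the day 12 TSLPR KO arm (6.50 CPM, next 4.66). In cord of uninjected mice these were the highest MC903 library of Mmp8 (5.58 CPM, next 1.33), the lowest ethanol library of Mmp2 (3.37 CPM, next 8.60) and the highest ethanol library of Mmp15 (83.3 CPM, next 66.1).

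The MC903 effect in skin differed between arms by the interaction test of edgeR for 6 genes. Adamts4 had a larger effect in aGr1-injected than in uninjected mice (difference in log2 fold change 2.42) and in the libraries labelled BLT1 KO (3.81). Mmp10 had a larger effect with aGr1 (2.28), and Mmp12 a smaller one in TSLPR KO mice (-2.69). In the libraries labelled BLT1 KO the log2 fold change was also higher than in uninjected mice for Adamts9 (1.48), Adamts17 (1.58) and Adamts18 (4.36). Of these, Adamts18 fell with MC903 in uninjected skin and rose in this arm. Neither aGr1 difference was called against PBS-injected mice. Those of Mmp12 and Adamts17 were not called against cohort B alone, and the Mmp12 call held in 5 of 16 fits that left out 1 library. The cause of these differences was not tested.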

How the results depend on the processing

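Of the 186 calls of single genes, 185 were made again with DESeq2's size factors, 185 with DESeq2's Wald test and 185 without the filter on low counts. The total of called members moved by over 1.5 times in these cases, whose cause was not tested. No share over all genes is given beside these totals, nor for the replicate block and the left-out libraries. They therefore describe only how steady the calls were. Without the filter it was 1 in skin at day 2 (0 in the reported fit), 12 in TSLPR KO skin at day 8 (7), 1 in ganglia at day 2 (0), 5 in ganglia at day 8 (1), 2 in TSLPR KO ganglia at day 8 (0) and 3 in their interaction (0). With DESeq2 it was 2 in skin at day 2, 13 in TSLPR KO skin at day 8, 1 in ganglia at day 5 (0), 4 in ganglia at day 8, 1 in TSLPR KO ganglia and 1 in their interaction, 2 in PBS-injected cord (0), and 7, 2 and 7 in the aGr1, TSLPR KO and BLT1 KO interactions of skin (2, 1 and 4). Ganglia of day 8 gave 0 without a cohort term and 0 in cohort B alone. With PBS-injected mice as reference the aGr1 interaction of skin gave 0, and Mmp10 reversed to -0.10 (adjusted p = 0.958). With cohort B as reference the TSLPR KO interaction gave 0.

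Blocked by replicate number (replicate block), the total was 2 in skin at day 2, 9 in PBS-injected skin (14), 11 in TSLPR KO skin at day 8, 6 at day 12 (13), 1 in ganglia at day 5, 0 at day 8, 14 in PBS-injected ganglia (8), 2 in TSLPR KO ganglia at day 8, 5 at day 12 (2), 5 in uninjected cord (8) and 2 in PBS-injected cord. Of the single-gene calls that this block could refit, 152 were made again and 27 were not. Same-numbered libraries deviated together in ganglia of day 5 and day 12, whose reported fits are unpaired.

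The following fits were chosen after seeing the data, with the calls over all genes tested in brackets. In 1 fit over days 1 to 8, 2 members were called at day 2 (995 of 28586). Without MC903 library 3 it again called 2 (793 of 28335). The aGr1 skin fit without 2 ethanol libraries rich in gland markers called 25 (5587 of 24318). In PBS-injected cord the crossed pairing called 5 members (955 of 24573). The day 12 skin fit without 2 such ethanol libraries left 1 ethanol library.

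Leaving out each library in turn gave totals of 10 to 17 in skin at day 1, 0 to 1 at day 2, 9 to 22 at day 5, 23 to 25 at day 8, 3 to 15 with PBS, 22 to 27 with aGr1, 4 to 7 in TSLPR KO, 24 to 29 in BLT1 KO and 9 to 16 in TSLPR KO at day 12. In ganglia the totals were 0 at day 1, 0 to 5 at day 2 (5 without ethanol replicate 2), 0 at day 5, 0 to 1 at day 8, 4 to 14 with PBS, 2 to 5 with aGr1, 0 to 4 in TSLPR KO and 1 to 2 at day 12. In cord they were 6 to 12, 0 to 6 with PBS and 8 to 11 with aGr1. The interactions gave 2 to 5 (aGr1), 0 to 1 (TSLPR KO) and 4 to 7 (BLT1 KO) in skin, 0 (aGr1) and 0 to 2 (TSLPR KO) in ganglia and 0 to 1 in cord. Mmp1b, Mmp7, Mmp20 and Mmp21 rest on few counts, so that small differences in them were not detectable at this depth.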
